A study of Musculus with 2 samples.

Results

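Immediate-early and heat shock genes were followed as a set of 36 of the 32245 gene symbols measured, 25 immediate-early and 11 heat shock genes, all of them found by symbol. They were listed by name as known members of these 2 responses. The data were droplet single-cell transcriptomes, counted as unique molecular identifiers (UMIs, 1 per captured transcript), of the stromal vascular fraction of mouse subcutaneous white adipose tissue, the cells left when floating adipocytes are spun away after digestion. A single library came from wild-type mice and is called the control, and a single library is labelled LPCAT3-AKO with the genotype LPCAT3 knockout, the loss of a phosphatidylcholine-remodelling acyltransferase. The sample labels give an age of 5 weeks and the series design 2 months and a diet written CD, and neither the number of mice behind a library nor the promoter that drove the deletion is given in the sources used here. Both tissues were kept on ice, minced and shaken warm in collagenase, so both libraries share that step. With 1 library per genotype there are no replicates and no test, so every interval below covers counting error only (95%), and genotype cannot be told apart from animal, digestion or library preparation.

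Immediate-early genes are switched on within minutes of a stimulus from factors already in the cell, with no new protein needed. Many encode transcription factors (the FOS and JUN subunits of AP-1, the EGR and NR4A families) and others encode brakes on the same signals, such as the MAP kinase phosphatase Dusp1 and the mRNA-decay factor Zfp36. Heat shock genes are switched on by HSF1 when proteins unfold and encode chaperones, of which Hspa8 and Hsp90ab1 are also made without stress while Hspa1a and Hspa1b are strongly inducible. Warm enzymatic digestion of tissue is a known inducer of both sets.

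Of the control library 11837 cells were kept after doublet removal (median 8199 UMIs, 2.36% of them mitochondrial), and of the library labelled LPCAT3-AKO 11104 (8689 UMIs, 2.37%). The libraries shared 58 barcodes. Lpcat3 itself stood at 27.6 and 31.0 CPM over all kept cells (ratio 1.12, 1.07 to 1.18) and at 27.1 and 28.7 CPM in fibroblast-like cells, so no loss of its tags was seen, and the labels do not say which cells or which stretch of the gene the deletion covers. LPCAT3-AKO below is therefore the label of a library. A cell was given a class, called X-like below, when it held a minimum number of a class's markers and passed no other gate (at least 7 of 10 for fibroblast, 5 of 12 for macrophage, 3 of 14 for dendritic, 5 of 10 for endothelial and 4 of 11 for epithelial cells, and 4 of the T, natural killer or B cell markers for lymphoid cells). The control and LPCAT3-AKO libraries held 5628 and 5634 fibroblast-like, 3868 and 2841 macrophage-like, 411 and 354 dendritic-like, 116 and 109 endothelial-like, 135 and 189 epithelial-like and 212 and 222 lymphoid-like cells. Cells passing several gates (858 and 1225) or none (505 and 419) were left out. Cells with exactly the minimum number of markers made up 1.49% to 4.05% of the fibroblast-, macrophage-, endothelial- and epithelial-like classes, 13.2% and 14.0% of the lymphoid-like and 26.8% and 21.8% of the dendritic-like class. Fibroblast markers outside the fibroblast-like class stood at 1.04% to 2.35% of their level in it, a measure of the RNA that drifts between droplets. Below, pairs of values give the control library first. CPM are UMIs of a gene per 1000000 UMIs of the class, so a difference between classes can be more RNA of a gene per cell or a larger share of cells with it.

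The immediate-early sum differed far more between cell classes than between libraries. It was 31746 and 30176 CPM in macrophage-like cells, 22371 and 19300 CPM in fibroblast-like, 19166 and 19835 CPM in dendritic-like, 14648 and 14559.7 CPM in endothelial-like, 12938 and 12281 CPM in epithelial-like and 9419.7 and 8388 CPM in lymphoid-like cells. This order was the same in both libraries except that dendritic-like cells stood above fibroblast-like cells in the library labelled LPCAT3-AKO. The epithelial-like place depended on how doublets were removed (below). With removal by rank of score the control sum was 6349.9 CPM in epithelial-like and 9393 CPM in lymphoid-like cells, so epithelial-like cells were then lowest in the control. Mast-like cells, under the 100-cell minimum with 67 and 58 cells, had the highest sum of any gate described (38517 and 35152 CPM), with Egr1 alone at 10931 and 9233 CPM. The heat shock sum followed another order and spanned less. Among the 6 compared classes it was highest in epithelial-like (8549 and 7984 CPM) and endothelial-like cells (8401 and 8062 CPM). Macrophage-like cells had 6572 and 5554 CPM, dendritic-like 6215 and 6022 CPM, lymphoid-like 5779.5 and 4638 CPM and fibroblast-like cells 5604 and 4722 CPM. Macrophage-like cells, with the highest immediate-early sum of the 6 classes, were thus below epithelial- and endothelial-like cells for chaperone RNA, while mast-like cells, at 9364 and 8258 CPM, were above all 6 for both sums.

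**Figure D1:**
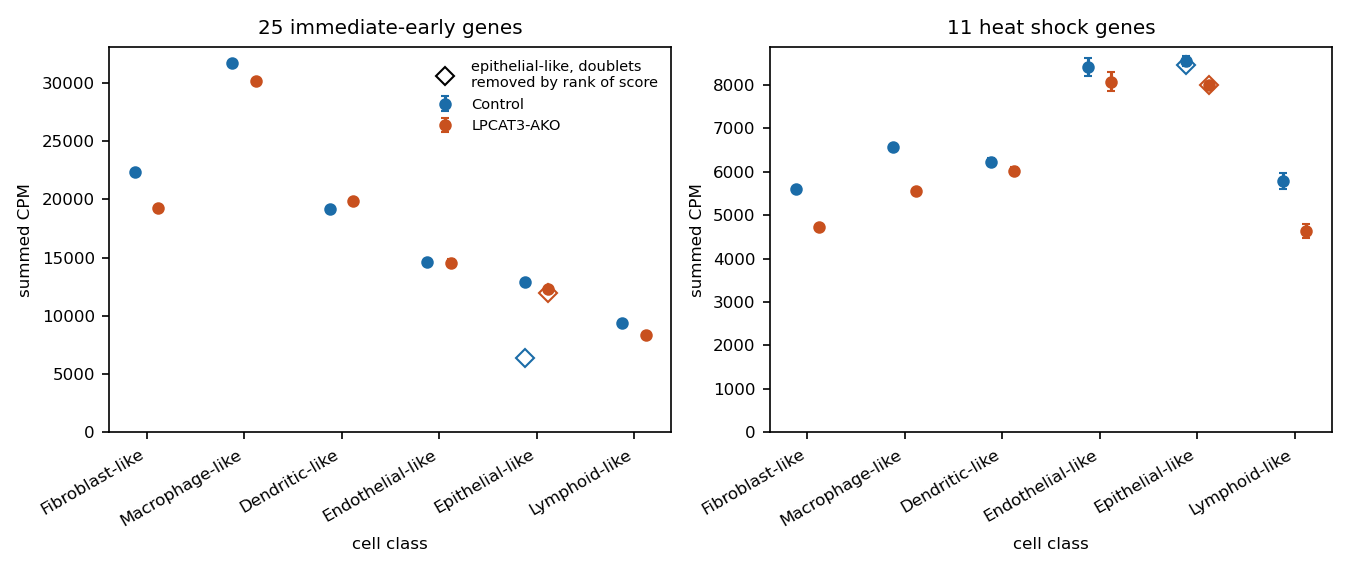
Summed CPM of the 25 immediate-early (left) and 11 heat shock genes (right) by cell class in the control (blue) and LPCAT3-AKO library (orange). Filled points are the sums with exact Poisson 95% intervals (counting error only, mostly narrower than the point), and open diamonds repeat the epithelial-like class with doublets removed by rank of score, where the control immediate-early sum was 6349.9 instead of 12938 CPM.

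Each class had its own set of leading members, and 33 of the 36 members had their highest level in the same class in both libraries. The share of all genes that did so was not computed, so this count is not read as a trait of the members. Macrophage-like cells led with 12 (Junb, Jund, Egr1, Egr2, Klf6, Ier2, Ier3, Ier5, Dusp1, Zfp36, Hspa1a and Dnajb1) and dendritic-like cells with 8 (Egr3, Nr4a1, Nr4a2, Nr4a3, Dusp2, Btg2, Gadd45b and Hspa8). Epithelial-like cells led with 7 (Jun, Atf3, Hspa1b, Hspd1, Hspe1, Hsp90aa1 and Hsp90ab1), and these leads were not checked with doublets removed by rank of score. Fos and Klf4 were highest in fibroblast-like, Klf2 and Hspb1 in endothelial-like, and Fosl2 and Dnaja1 in lymphoid-like cells. The remaining 3, Fosb, Zfp36l1 and Hsph1, changed places. For calls between classes a gene needed 20 CPM, a ratio of 2 or more in each library on its own, and counting intervals that excluded 1.

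**Figure D2:**
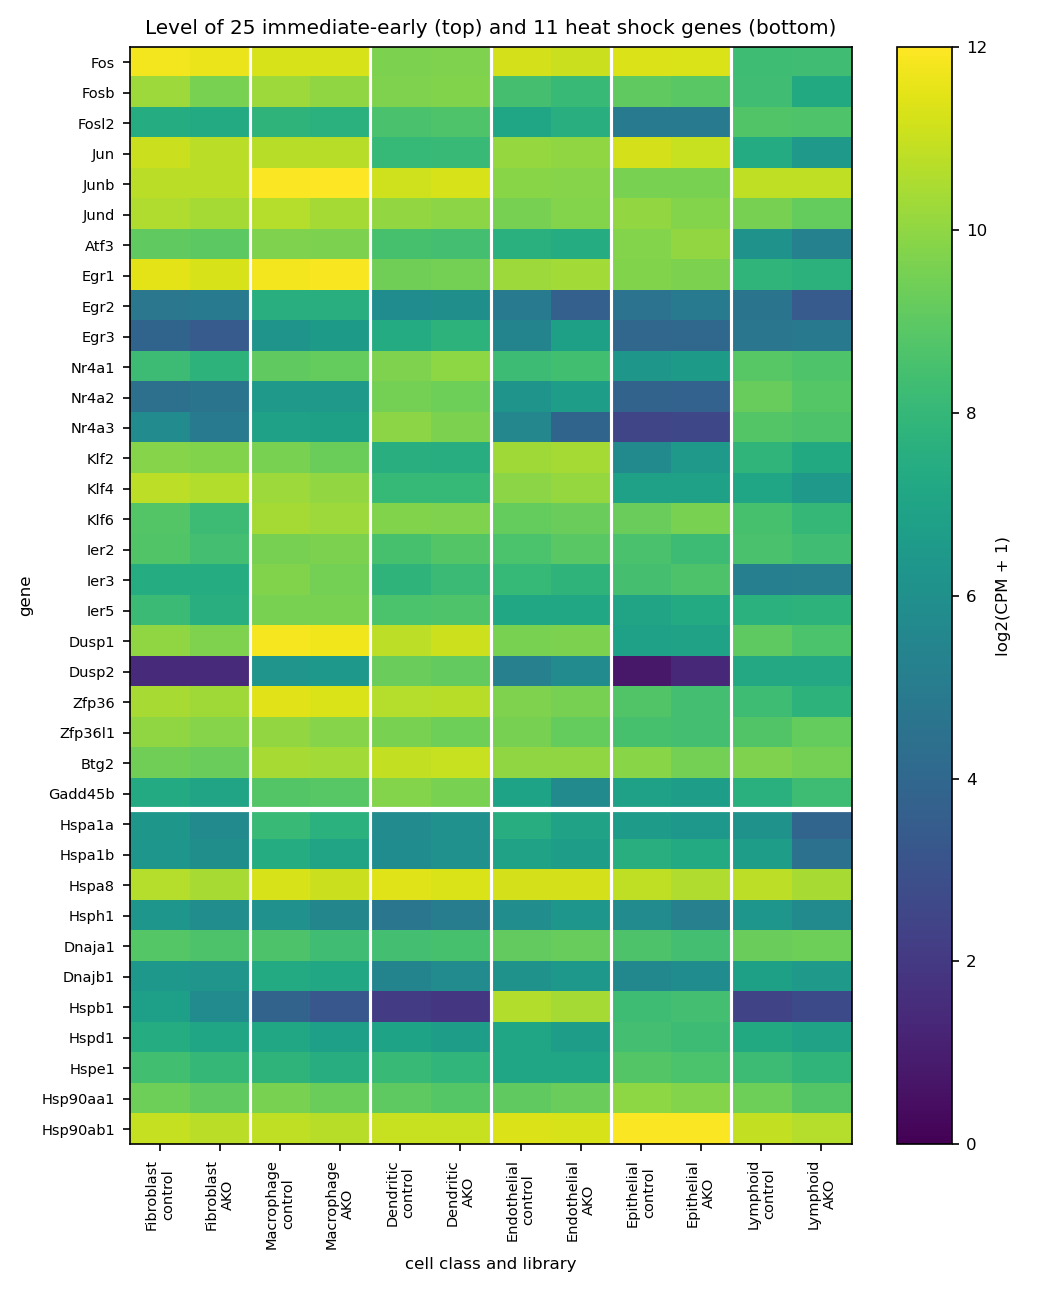
Level of each of the 36 genes (rows) in 6 cell classes and both libraries (columns), as log2(CPM + 1), with immediate-early genes above and heat shock genes below the white line. Paired columns of a class look alike while classes differ, as in the NR4A rows, bright in dendritic-like cells, and the Hspb1 row, bright in endothelial-like cells.

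The AP-1 subunits divided the classes. Fos had 3499.8 and 3179 CPM in fibroblast-like cells, 2464 and 2479 in macrophage-like, 797 and 818 in dendritic-like, 2378 and 2118 in endothelial-like, 2656 and 2591 in epithelial-like and 307 and 323 in lymphoid-like cells. Jun had 2070.2 and 1728 CPM in fibroblast-like cells, 1699 and 1651 in macrophage-like, 259 and 282 in dendritic-like, 1098 and 1026 in endothelial-like, 2411 and 2064 in epithelial-like and 166 and 89.0 in lymphoid-like cells. Fos and Jun, which pair with each other, were both high in fibroblast-, macrophage- and epithelial-like cells and low in lymphoid-like cells. Fosb had 1214 and 766 CPM in fibroblast-like cells, 1204 and 1039 in macrophage-like, 812 and 836 in dendritic-like, 346 and 278 in endothelial-like, 541 and 492 in epithelial-like and 321 and 157 in lymphoid-like cells. Atf3 had 545 and 497 CPM in fibroblast-like cells, 813 and 791 in macrophage-like, 365 and 336 in dendritic-like, 197 and 169 in endothelial-like, 885 and 1057 in epithelial-like and 71.1 and 37.5 in lymphoid-like cells. Junb, a JUN paralog with weaker transforming activity, was the exception in lymphoid-like cells: 1842 and 1859 CPM there, near the 1738 and 1704 CPM of fibroblast-like cells. Fosl2 ran against the others, with its highest level in lymphoid-like (421 and 416 CPM) and its lowest in epithelial-like cells (30.2 and 30.6 CPM). In lymphoid-like cells Fos, Jun, Atf3 and, of the genes below, Egr1, Klf4 and Ier3 stood at 1.22 to 2.63 times the level that drifting fibroblast and macrophage RNA would bring, and these levels are read as background. Jund, a subunit less tied to stimulation, had the smallest fold between its lowest and highest values of the 7 subunits, from 581 to 1636 CPM.

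The EGR zinc-finger factors were not used alike. Egr1 had 2930.3 and 2487 CPM in fibroblast-like cells, 3591 and 3732 in macrophage-like, 667 and 718 in dendritic-like, 1221 and 1293 in endothelial-like, 854 and 805 in epithelial-like and 231 and 209 in lymphoid-like cells. Egr2 had 26.0 and 30.1 CPM in fibroblast-like cells, 187 and 188 in macrophage-like, 55.6 and 62.4 in dendritic-like, 28.6 and 11.9 in endothelial-like, 22.6 and 28.6 in epithelial-like and 23.7 and 9.74 in lymphoid-like cells. Egr3 had 13.5 and 9.83 CPM in fibroblast-like cells, 73.0 and 91.8 in macrophage-like, 165 and 219 in dendritic-like, 42.3 and 113 in endothelial-like, 14.4 and 14.9 in epithelial-like and 25.2 and 27.8 in lymphoid-like cells. Egr1 and Egr2 were highest in macrophage-like cells, whereas Egr3 was 2.26 and 2.38 times as high in dendritic-like as in macrophage-like cells while Egr1 there was 0.186 and 0.192 times the macrophage-like level.

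Of the NR4A orphan nuclear receptors, Nr4a2 and Nr4a3 were highest in dendritic-like and next in lymphoid-like cells, whereas Nr4a1 was next highest in macrophage-like cells. Nr4a1 had 295 and 213 CPM in fibroblast-like cells, 536 and 580.4 in macrophage-like, 825 and 992 in dendritic-like, 299.8 and 327 in endothelial-like, 80.1 and 93.4 in epithelial-like and 467 and 412 in lymphoid-like cells. Nr4a3 had 54.8 and 28.9 CPM in fibroblast-like cells, 116 and 111 in macrophage-like, 961 and 783 in dendritic-like, 46.0 and 13.4 in endothelial-like, 4.67 and 5.14 in epithelial-like and 444 and 405 in lymphoid-like cells. Nr4a2 had 726 and 659.9 CPM in dendritic-like and 597 and 449 CPM in lymphoid-like cells against 20.7 and 23.6 CPM in fibroblast-like cells. Lymphoid-like cells, with the lowest immediate-early sum of all, therefore ranked second for Nr4a2 and Nr4a3. Mature dendritic-like cells (33 and 13 cells) had the highest Nr4a3 among the dendritic states, 1876 and 1234 CPM, beside 566 and 519 CPM in type 1 and 1041 and 907 CPM in type 2 dendritic-like cells, 2 lineages that differ in the T cell responses they prime. Dusp2 was highest in type 1 dendritic-like cells (1099.9 and 1114 CPM, against 308 and 303 CPM in type 2).

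Of the Krüppel-like factors, Klf4 was highest in fibroblast-like cells and Klf2, which flow induces in vessels, in endothelial-like cells, though Klf2 was only 1.4 and 1.63 times its fibroblast-like level there, short of the 2-fold limit. Klf4 had 1769.9 and 1593 CPM in fibroblast-like cells, 1223 and 1054 in macrophage-like, 263 and 263 in dendritic-like, 953 and 1107 in endothelial-like, 114 and 118 in epithelial-like and 130.4 and 90.4 in lymphoid-like cells. Klf2 had 903 and 834 CPM in fibroblast-like cells, 769 and 633 in macrophage-like, 184 and 179 in dendritic-like, 1261 and 1356 in endothelial-like, 51.4 and 85.4 in epithelial-like and 231 and 156 in lymphoid-like cells. Klf2 was lowest in epithelial-like cells and Klf4 in epithelial- and lymphoid-like cells. Klf6, a relative induced by injury, ran from 257 CPM in lymphoid-like to 1353 CPM in macrophage-like cells.

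The feedback genes followed the macrophage axis for the most part. Dusp1 had 1030.3 and 832 CPM in fibroblast-like cells, 3664 and 3372 in macrophage-like, 1799 and 2162 in dendritic-like, 764 and 800.4 in endothelial-like, 116 and 118 in epithelial-like and 519 and 385 in lymphoid-like cells. Ier5 had 287 and 187 CPM in fibroblast-like cells, 769 and 779.8 in macrophage-like, 389 and 408 in dendritic-like, 146 and 140.4 in endothelial-like, 127 and 162 in epithelial-like and 201 and 217 in lymphoid-like cells. Gadd45b had 159.9 and 129.6 CPM in fibroblast-like cells, 443 and 475 in macrophage-like, 864 and 778 in dendritic-like, 123 and 50.8 in endothelial-like, 114 and 100.1 in epithelial-like and 194 and 309 in lymphoid-like cells. Dusp1, a phosphatase that switches off p38 and JNK, was 3.56 and 4.05 times as high in macrophage-like as in fibroblast-like cells. Its relative Dusp2 was highest in immune cells, with 619 and 549.7 CPM in dendritic-like, 149.6 and 150.2 CPM in lymphoid-like and 75.5 and 82.1 CPM in macrophage-like cells, against 36.1 and 53.8 CPM in endothelial-like, 1.67 and 1.68 CPM in fibroblast-like and 0.719 and 1.54 CPM in epithelial-like cells. The fibroblast- and epithelial-like values are 1.61 to 3.06 times the level that drifting RNA would bring, and are read as background. Over the 12 class and library values, Zfp36 ran from 218 CPM in lymphoid-like to 2835 CPM in macrophage-like cells, its paralog Zfp36l1 from 337 CPM in epithelial-like to 1048 CPM in macrophage-like cells and the antiproliferative Btg2 from 605 CPM in fibroblast-like to 2017 CPM in dendritic-like cells. Ier2 ran from 295 CPM in epithelial-like to 789 CPM in macrophage-like cells and Ier3, a survival factor, from 35.6 CPM in lymphoid-like to 855 CPM in macrophage-like cells.

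Counted over pairs of classes, macrophage-like against fibroblast-like cells had 13 of 25 immediate-early genes higher and 0 lower (over all genes, 22.5% were higher and 19.4% lower), with folds of 2.03 and 2.04 for Zfp36 and 5.42 and 9.34 for Egr3. No fold is given for Dusp2, whose fibroblast-like level is background. Fos, Jun, Klf2 and Klf4 were not among them and had ratios under 1 in both libraries. Dendritic-like against macrophage-like cells had 4 higher (Egr3, Nr4a2, Nr4a3, Dusp2) and 8 lower (Fos, Jun, Atf3, Egr1, Egr2, Klf2, Klf4, Ier3), against 7.77% and 18.5% of all genes. Of the 8, Jun was nearest to the drifting level in dendritic-like cells, at 3.26 and 3.06 times. In endothelial-like against fibroblast-like cells 3 were higher (Egr3, Nr4a2, Dusp2) and 2 lower (Fosb, Atf3), shares near the 17.8% and 14.3% of all genes. Epithelial-like against fibroblast-like cells had only Ier3 higher and 10 lower (background 18.3% and 20.8%), of which Klf2 had folds of 0.0569 and 0.102 and Dusp1 folds of 0.113 and 0.142. Calls of this pair were not run with doublets removed by rank of score. The epithelial-like Dusp1 level is 3.69 and 3.9 times, and the Klf2 level 3.74 and 6.06 times, that of drifting RNA. Lymphoid-like against dendritic-like cells had 0 higher and 14 of 25 lower (background 16.5% and 12.6%), and Junb, Fosl2, Nr4a1 and Nr4a2 were among the 11 not lower. Of the 14, Fos, Atf3, Egr1, Klf4 and Ier3 are at the background level in lymphoid-like cells. Zfp36 stood at 3.24 and 2.63 and Egr2 at 4.975 and 2.1 times the drifting level there. Their LPCAT3-AKO levels are read as background too.

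Heat shock members separated into a broad constitutive group and a few with a home class. The constitutive HSP70 Hspa8 was high everywhere. Hspa8 had 1618 and 1395 CPM in fibroblast-like cells, 2494 and 2091 in macrophage-like, 2711 and 2578 in dendritic-like, 2403 and 2415 in endothelial-like, 1823 and 1516 in epithelial-like and 1778 and 1377 in lymphoid-like cells. Hsp90ab1 had 1955 and 1710.0 CPM in fibroblast-like cells, 1875 and 1691 in macrophage-like, 2055 and 2066 in dendritic-like, 2633 and 2467 in endothelial-like, 3858 and 3882 in epithelial-like and 1916 and 1636 in lymphoid-like cells. Hsp90ab1, the constitutive HSP90, stood out in epithelial-like cells. Dnaja1 had 451 and 396 CPM in fibroblast-like cells, 398 and 320.0 in macrophage-like, 344 and 357 in dendritic-like, 562 and 597 in endothelial-like, 403 and 340.3 in epithelial-like and 604 and 659 in lymphoid-like cells. Hspe1 had 331 and 251 CPM in fibroblast-like cells, 221 and 178 in macrophage-like, 277 and 241 in dendritic-like, 133 and 133 in endothelial-like, 436 and 390.5 in epithelial-like and 299 and 227 in lymphoid-like cells. Hspe1, the lid of the mitochondrial chaperonin whose barrel is Hspd1, was highest in epithelial-like cells and lowest in endothelial-like cells. The J-protein Dnaja1, an HSP70 partner, varied less, with its highest value in lymphoid-like cells. Its inducible counterpart Dnajb1 ran from 41.1 CPM in dendritic-like to 160.0 CPM in macrophage-like cells, Hspd1 from 101 CPM in dendritic-like to 339 CPM in epithelial-like cells and the inducible HSP90 Hsp90aa1 from 439 CPM in lymphoid-like to 998 CPM in epithelial-like cells.

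Hspb1, a small heat shock protein that holds unfolded clients, had the largest fold between classes of the heat shock members, with its lowest values at background. Hspb1 had 107 and 53.6 CPM in fibroblast-like cells, 13.3 and 8.66 in macrophage-like, 3.31 and 2.71 in dendritic-like, 1578 and 1344 in endothelial-like, 308 and 336 in epithelial-like and 4.44 and 5.56 in lymphoid-like cells. It was 14.8 and 25.1 times as high in endothelial-like and 2.88 and 6.26 times as high in epithelial-like as in fibroblast-like cells. Levels in dendritic- and lymphoid-like cells were 1.58 to 4.06 times the level that drifting fibroblast and macrophage RNA would bring, and are read as background. Hspa1a had 80.1 and 52.0 CPM in fibroblast-like cells, 267 and 203 in macrophage-like, 54.0 and 65.8 in dendritic-like, 175 and 121 in endothelial-like, 97.7 and 84.4 in epithelial-like and 71.1 and 13.9 in lymphoid-like cells. Hspa1b had 77.1 and 62.9 CPM in fibroblast-like cells, 171 and 127 in macrophage-like, 57.0 and 66.1 in dendritic-like, 121 and 105 in endothelial-like, 184 and 162 in epithelial-like and 104 and 22.3 in lymphoid-like cells. Hsph1 had 77.4 and 58.7 CPM in fibroblast-like cells, 65.3 and 44.1 in macrophage-like, 25.5 and 32.5 in dendritic-like, 57.2 and 77.7 in endothelial-like, 55.0 and 36.3 in epithelial-like and 77.0 and 51.5 in lymphoid-like cells. The inducible Hspa1a and Hspa1b, which are near-identical and may share reads, were the 2 heat shock members higher in macrophage-like than in fibroblast-like cells (folds 3.33 and 3.9 for Hspa1a, 2.21 and 2.02 for Hspa1b), and Hspb1 was the 1 lower. Endothelial-like against fibroblast-like cells had Hspa1a and Hspb1 higher, and epithelial-like cells Hspa1b and Hspb1. Hspa1a and Dnajb1 were lower in dendritic-like than in macrophage-like cells, and no heat shock member differed by the rule between lymphoid- and dendritic-like cells.

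Within fibroblast-like cells the response was split in 2 modes. Per cell, the immediate-early UMIs per 10000 had a peak between 25 and 50 and a broad second peak, between 250 and 300 in the control and between 225 and 250 in the library labelled LPCAT3-AKO. The trough between them lay from 75 to 150 in the control and ran on to 200 in the library labelled LPCAT3-AKO. Cells under 75, a limit placed at the lower edge of the trough after seeing the data, made up 23.3% (22.2% to 24.4%, Clopper-Pearson) of 5628 control cells and 29.2% (28.0% to 30.4%) of 5634 LPCAT3-AKO cells. After thinning every cell to 2000 UMIs the shares were 22.2% and 28.3%. Cells above 150 made up 65.9% and 56.2%. These are ranges of a score and not cell types, and 169 and 221 cells lay within 10 of the lower limit. The low share was 22.6% and 28.0% among Dpp4-high progenitor-like cells and 20.2% and 29.1% among Icam1-high preadipocyte-like cells, so it was larger in the library labelled LPCAT3-AKO within both of these states. Low cells had 7310 and 7861 median UMIs against 9989 and 9484 in high cells, and a median mitochondrial share of 2.28% and 2.32% against 1.76% and 1.75%. The median over cells was 221 in the control and 182 in the library labelled LPCAT3-AKO. The part of depth or cell damage in this split was not tested.

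**Figure D3:**
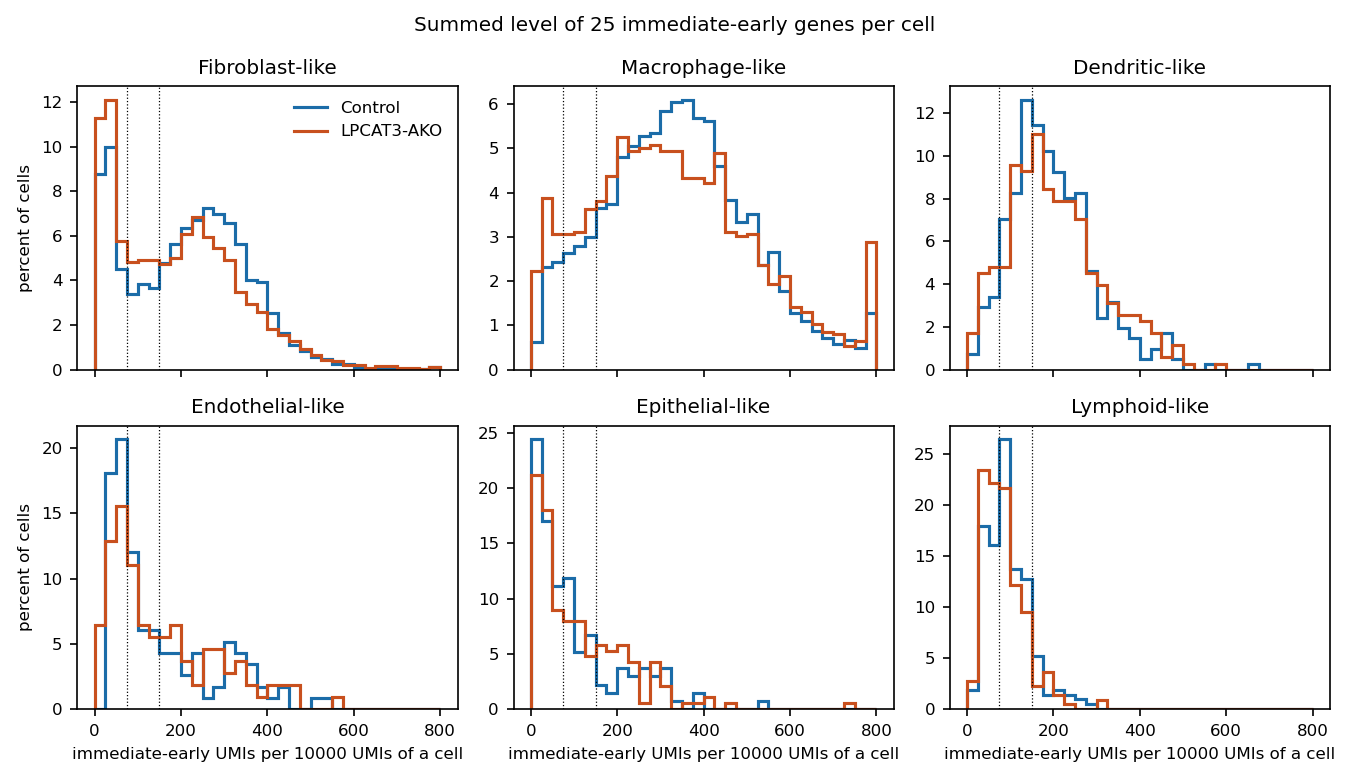
Percent of cells (vertical axis) by immediate-early UMIs per 10000 UMIs of the cell (horizontal axis, bins of 25, the last bin holding all cells of 775 or more) in each cell class, control in blue and LPCAT3-AKO in orange. Dotted lines mark 75 and 150. Fibroblast-like cells show a low and a high mode, with more LPCAT3-AKO than control cells in the low mode, and macrophage-like cells a broad main hump, with a small low peak between 25 and 50 in LPCAT3-AKO cells.

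Macrophage-like cells had few low cells, 5.38% and 9.15% (5.08% and 8.87% thinned). Dendritic-like cells had 7.06% and 11.02%, endothelial-like 38.8% and 34.9%, epithelial-like 52.6% and 48.1% and lymphoid-like 35.8% and 48.2%. The thinned shares in the last 4 classes were 7.43% and 11.7%, 33.02% and 35.6%, 51.9% and 46.5%, and 36.1% and 45.6%. The counting intervals of the libraries did not overlap in fibroblast- and macrophage-like cells, the classes with the most cells. These intervals take cells as the unit, at a limit set after seeing the data. They hold no variation between animals or digestions, so their separation is not read as a difference of genotype. The lymphoid-like difference is larger but rests on 212 and 222 cells.

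In fibroblast- and macrophage-like cells most chaperones followed the immediate-early ranges weakly or not at all. In fibroblast-like cells the heat shock sum was 4965 CPM in low and 5732 CPM in high control cells, and 4172 and 4935 CPM in the library labelled LPCAT3-AKO. A list of 33 other early genes, which played no part in setting the ranges, went from 3057 to 11139 CPM in the control and from 2745 to 10143 CPM in the library labelled LPCAT3-AKO. The heat shock member with the largest high-to-low contrast was Dnajb1, a J-protein, at 26.5 and 103 CPM in control and 26.1 and 103 CPM in LPCAT3-AKO cells. In macrophage-like cells Dnajb1 went from 41.1 to 176 CPM and from 37.9 to 165 CPM. Hspa1a stood next among fibroblast-like cells, at 39.7 and 86.9 CPM in the control, while Hspd1 was 184 and 165 CPM. Across thinned cells the correlation of the 2 sums was 0.118 and 0.19 in fibroblast-like (5504 and 5517 cells) and 0.0578 and 0.0282 in macrophage-like cells (3625 and 2707). It was 0.248 and 0.364 in endothelial-like, 0.149 and 0.175 in lymphoid-like and -0.0209 to 0.0402 in dendritic- and epithelial-like cells. The endothelial-like heat shock sum went from 7312 to 9584.5 CPM in the control and from 6917 to 9532.5 CPM in the library labelled LPCAT3-AKO, low to high. These describe cells that share a library, and thinned cells hold few heat shock UMIs, which can lower r. No relation is read from them.

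Between libraries a gene was called when it had 20 CPM in the higher library, at least a 1.5-fold difference up or down and an interval that excluded 1. In fibroblast-like cells 3 of 23 measured immediate-early genes fell in the library labelled LPCAT3-AKO (Fosb, Nr4a3, Ier5), 2 of 11 heat shock genes fell (Hspa1a, Hspb1) and 0 members rose, against 0.794% lower and 1.29% higher among 6043 measured genes. Fosb, a FOS paralog with long-lived splice products, was 1214 and 766 CPM (log2 ratio -0.66; ratio 0.631, 0.623 to 0.639). Nr4a3 was 54.8 and 28.9 CPM (-0.90; ratio 0.527, 0.495 to 0.561). Ier5, an early gene, was 287 and 187 CPM (-0.62). Hspb1 had 107 and 53.6 CPM (-0.98; ratio 0.502, 0.48 to 0.525) and Hspa1a 80.1 and 52.0 CPM (-0.61). At the 1.5-fold limit Fosb, Nr4a3 and Hspb1 kept the call under all 11 other ways of processing, Ier5 lost it under 3 and Hspa1a under 2. At a limit of 2-fold 0 of these 5 were called. The rest leaned the same way by less: 21 of 23 immediate-early genes had ratios under 1 (median log2 ratio -0.19; ratio of the sums 0.863, 0.86 to 0.865), as did 11 of 11 heat shock genes (-0.30; ratio of the sums 0.843, 0.838 to 0.847). All 6043 measured genes had a median of -0.0025. The exceptions were Egr2 and Nr4a2, at 26.0 and 30.1 CPM and 20.7 and 23.6 CPM.

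The states of fibroblast-like cells differed in which members carried this. In Dpp4-high cells (4143 and 3509) 5 members fell and 0 rose (background 0.792% lower, 0.944% higher): Fosb, Nr4a3, Hspa1a, Hspa1b and Hspb1. Hspa1a was 65.8 and 32.7 CPM and Hspb1 126 and 64.1 CPM there. In Icam1-high cells (991 and 1476) only Ier5 fell, at 177 and 111 CPM, and 0 rose (background 1.47% and 0.945%). Hspa1b stood at 209.6 and 163 CPM in Icam1-high and 44.7 and 23.6 CPM in Dpp4-high cells, and Hspb1 at 46.4 and 36.5 CPM in Icam1-high cells. Jun had 3389 and 2877 CPM in Icam1-high against 1774 and 1303 CPM in Dpp4-high cells. In the 50 and 76 F3-high cells the immediate-early sum was lowest, 13774 and 11113 CPM, beside 22446 and 19398 CPM in Dpp4-high and 23456 and 20514 CPM in Icam1-high cells. Of 27 measured other early genes 8 fell in Icam1-high cells (Nfkbia, Nfkbiz, Ptgs2, Gem, Trib1, Phlda1, Pim1 and Cxcl1) and 2 in Dpp4-high cells (Sgk1 and Cxcl1). The difference between states was not tested.

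Within the ranges of the immediate-early score the 2 gene sets cannot be set against each other, since the immediate-early genes define the ranges. In high fibroblast-like cells the immediate-early sums were 28930 and 28427 CPM, with 11 of 23 genes having ratios above 1 and 12 under 1. The range itself holds these sums close and favours such a balance. In low cells 7 of 19 had ratios above 1 and 12 under 1. Nr4a3 (73.8 and 44.7 CPM) and Fosb (1600.2 and 1180.2 CPM) kept ratios under 1 in high cells. The heat shock genes, not used to set the range, had ratios under 1 in 10 of 11 in high and 11 of 11 in low cells. Hspb1 was 111 and 59.2 CPM in high and 77.5 and 44.7 CPM in low cells, and Hspe1 329 and 249 CPM and 313 and 242 CPM.

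Macrophage-like cells had 0 of 35 measured members called in either direction (background 0.687% lower and 1.21% higher of 5965 genes). Their immediate-early genes split, 10 with ratios above and 15 under 1 (ratio of the sums 0.951, 0.948 to 0.954). All 10 measured heat shock genes had ratios under 1, each short of 1.5-fold, with a median log2 ratio of -0.31 against 0.04 over all genes (ratio of the sums 0.845, 0.839 to 0.851). Hsph1, an HSP110 exchange factor for HSP70, came nearest to the limit at 65.3 and 44.1 CPM, and Hspa8 was 2494 and 2091 CPM. The same 10 of 10 held in resident (Lyve1-type) macrophage-like cells, where Hspa8 was 2507 and 2046 CPM. In the 106 and 170 monocyte-like cells Hspa8 was 2616 and 2633 CPM and 3 of 10 ratios were above 1.

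Dendritic-like cells also had 0 members called (background 1.67% lower and 3.29% higher). Of the immediate-early genes 16 of 25 had ratios above 1 (ratio of the sums 1.03, 1.02 to 1.05), with Egr3 at 165 and 219 CPM and Ier3 at 219.6 and 289 CPM, and of the heat shock genes 6 of 10 (ratio of the sums 0.969, 0.949 to 0.989). All measured genes of the class had a median log2 ratio of 0.06, so these counts are not read as a rise of the members. Mature dendritic markers, 5 of 5 seen, summed to 1689 and 564 CPM in the class (33 and 13 mature cells) and the 14 dendritic markers to 2988 and 2228 CPM, and their part in these ratios was not tested. The inducible pair lay on opposite sides in the 2 lineages. In type 1 dendritic-like cells (107 and 96) Hspa1a was 36.1 and 108 CPM (32 and 90 UMIs) and Hspa1b 31.6 and 124 CPM (28 and 103 UMIs). In type 2 cells (207 and 207) they were 58.8 and 40.7 CPM and 69.3 and 43.5 CPM. Type 1 cells missed the 100-cell minimum in the library labelled LPCAT3-AKO, so no call was made, and the difference between the lineages was not tested.

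In endothelial-like cells Egr3 rose and Egr2, Nr4a3 and Gadd45b fell, 1 and 3 of 36 members against 4.18% and 3.69% of all genes. Egr3 had 42.3 and 113 CPM (ratio 2.68, 1.77 to 4.15) from 34 UMIs in 17 of 116 cells and 76 UMIs in 24 of 109 cells, of which 12 in 1 cell, and at the 1.5-fold limit kept its direction under all 10 other settings and its call under 9 of them, with log2 ratios of 0.59 to 1.67. The sums behind the lower calls were small too: Egr2 had 23 UMIs from 15 of 116 cells and 8 UMIs from 6 of 109 cells. Nr4a3 had 37 UMIs from 9 of 116 cells, of which 13 in 1 cell, and 9 UMIs from 6 of 109 cells. Gadd45b, a stress sensor of the p38 pathway, had 123 and 50.8 CPM from 99 and 34 UMIs. All 3 log2 ratios turned positive with classes taken from clusters (0.52, 0.02 and 0.13), a class of 286 and 335 cells, so these 3 rest on the gate. Lymphatic endothelial markers, 5 of 5 seen in both libraries, summed to 1466 and 2610.3 CPM in this class, and their part in these values was not tested. The heat shock genes split, 5 above and 6 under 1.

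In epithelial-like cells the comparison turned on how doublets were removed. With doublets removed at Scrublet's own score threshold, 135 control and 189 LPCAT3-AKO cells had immediate-early sums of 12938 and 12281 CPM (ratio of the sums 0.949, 0.936 to 0.962), 10 of 21 measured genes had ratios above 1 and 11 under 1, and only Klf2 rose (51.4 and 85.4 CPM; background 3.28%). Hsph1 fell (55.0 and 36.3 CPM; background 3.05%), and 8 of 11 heat shock genes had ratios under 1. The Klf2 call was lost when each cell weighed alike and the Hsph1 call under 4 of 11 other settings. Klf2 stood at 3.74 and 6.06 times the level that drifting fibroblast and macrophage RNA would bring. Removing instead the cells of highest score, 0.8% per 1000 cells, took 42 further control cells (30.9% of those gated) and 11 LPCAT3-AKO cells (5.82%). These control cells had an immediate-early sum of 23699 CPM against 6349.9 CPM in the 93 that stayed, and median UMIs of 22796 against 14202. Their epithelial markers summed to 17381 against 17067 CPM, fibroblast markers to 326 against 434 CPM and macrophage markers to 95.6 against 107 CPM. The class had already left out cells that passed another gate, which by itself favours low fibroblast and macrophage sums. Doublets made of epithelial-like cells only would not raise these sums either. Whether the control cells taken were doublets can therefore not be decided from these markers. The LPCAT3-AKO cells taken had 20931 CPM of immediate-early genes, epithelial markers at 7668 CPM against 17257 CPM in those that stayed, and fibroblast markers at 762 against 518 CPM. With that removal 17 members were higher in the library labelled LPCAT3-AKO and the log2 ratio of the immediate-early sums was 0.91. The share of all genes called under that removal was not computed, so the 17 are not read as a result about the members. With no removal at all it was -0.09. No direction of the immediate-early genes between libraries is therefore given for this class.

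The epithelial-like cells fell in 2 clusters made without the member genes. Cluster 13, led by Olfm4 and Dcpp3 over the other, held 89 and 121 cells, with immediate-early sums of 11900 and 12197 CPM. Cluster 24, led by Wfdc18, Lcn2 and the milk protein gene Csn3, held 46 and 68 cells, with 14393 and 12422 CPM. Their shares of the class were alike in both libraries (65.9% and 64.0% for cluster 13).

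In lymphoid-like cells Fosb, Jun, Atf3, Hspa1a and Hspa1b fell and Gadd45b rose, 5 and 1 of 35 measured members against 6.36% lower and 2.99% higher among all genes. Hspa1a had 71.1 and 13.9 CPM (ratio 0.196, 0.0882 to 0.391) and Hspa1b 104 and 22.3 CPM (ratio 0.215, 0.116 to 0.373), and both calls held under all 10 other ways of processing at the 1.5-fold limit. Drifting fibroblast and macrophage RNA would bring 7.80 and 5.44 CPM of Hspa1a and 5.59 and 4.07 CPM of Hspa1b. The LPCAT3-AKO Hspa1a level is 2.56 times its drifting level and is read as background, so the size of the Hspa1a fold is not read. Few cells carried them: the Hspa1a sum was 48 UMIs from 14 of 212 cells, 15 of them in 1 cell, and 10 UMIs from 8 of 222 cells. Hspa1b had 70 UMIs from 19 of 212 cells, at most 12 in 1 cell, and 16 UMIs from 10 of 222 cells. T-like cells (111 and 143) had Hspa1a at 104 and 8.57 CPM and natural killer-like cells (91 and 60) at 26.9 and 31.1 CPM, while Hspa1b was 60.8 and 17.1 CPM and 177 and 41.4 CPM. Fosb had 321 and 157 CPM, Jun 166 and 89.0 CPM and Atf3 71.1 and 37.5 CPM. Drifting fibroblast and macrophage RNA would bring 86.2 and 73.1 CPM of Jun and 30.8 and 27.7 CPM of Atf3. With classes taken from clusters the log2 ratios of Fosb, Jun and Atf3 were 0.06, -0.08 and 0.33, and that of Gadd45b (194 and 309 CPM in the gated class) was -0.32 under a stricter gate, so these 4 rest on the gate. The Gadd45b call was also lost without the 1% of cells with the most. Natural killer markers, 9 of 9 seen, summed to 4731 and 2713 CPM in the class. B cell and plasma cell markers, 6 and 7 of 7 seen, with Jchain at 0 in the control, summed to 375 and 18651 CPM over 10 and 19 B-like cells and the rest of the class. The part of this make-up in the calls was not tested. Within T-like cells alone 12 members fell and 1, Gadd45b, rose (background 5.65% and 3.48%), and the 12 included 6 heat shock genes: Hspa1a, Hspa1b, Hsph1, Dnajb1, Hspe1 and Hsp90aa1. The others of the 12 were Fosb, Jun, Atf3, Klf2, Klf4 and Zfp36, and Jun, Atf3 and Klf4 are read as background in lymphoid-like cells. There the LPCAT3-AKO level of Zfp36 is read as background too. For each of the 12, the control T-like cell with the most held 7.69% (Klf2) to 36.6% (Hspa1a) of the UMIs. For Zfp36 this was 34 of 151 UMIs, for Jun 15 of 64, for Hspe1 30 of 157 and for Hsp90aa1 32 of 290. Zfp36 was found in nearly equal shares of T-like cells, 45.9% and 44.8%. The T-like calls were not put through the other ways of processing. Of the 183 Gadd45b UMIs of LPCAT3-AKO T-like cells 38 came from 1 cell, and 33 of 111 control and 42 of 143 LPCAT3-AKO cells held any.

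**Figure D4:**
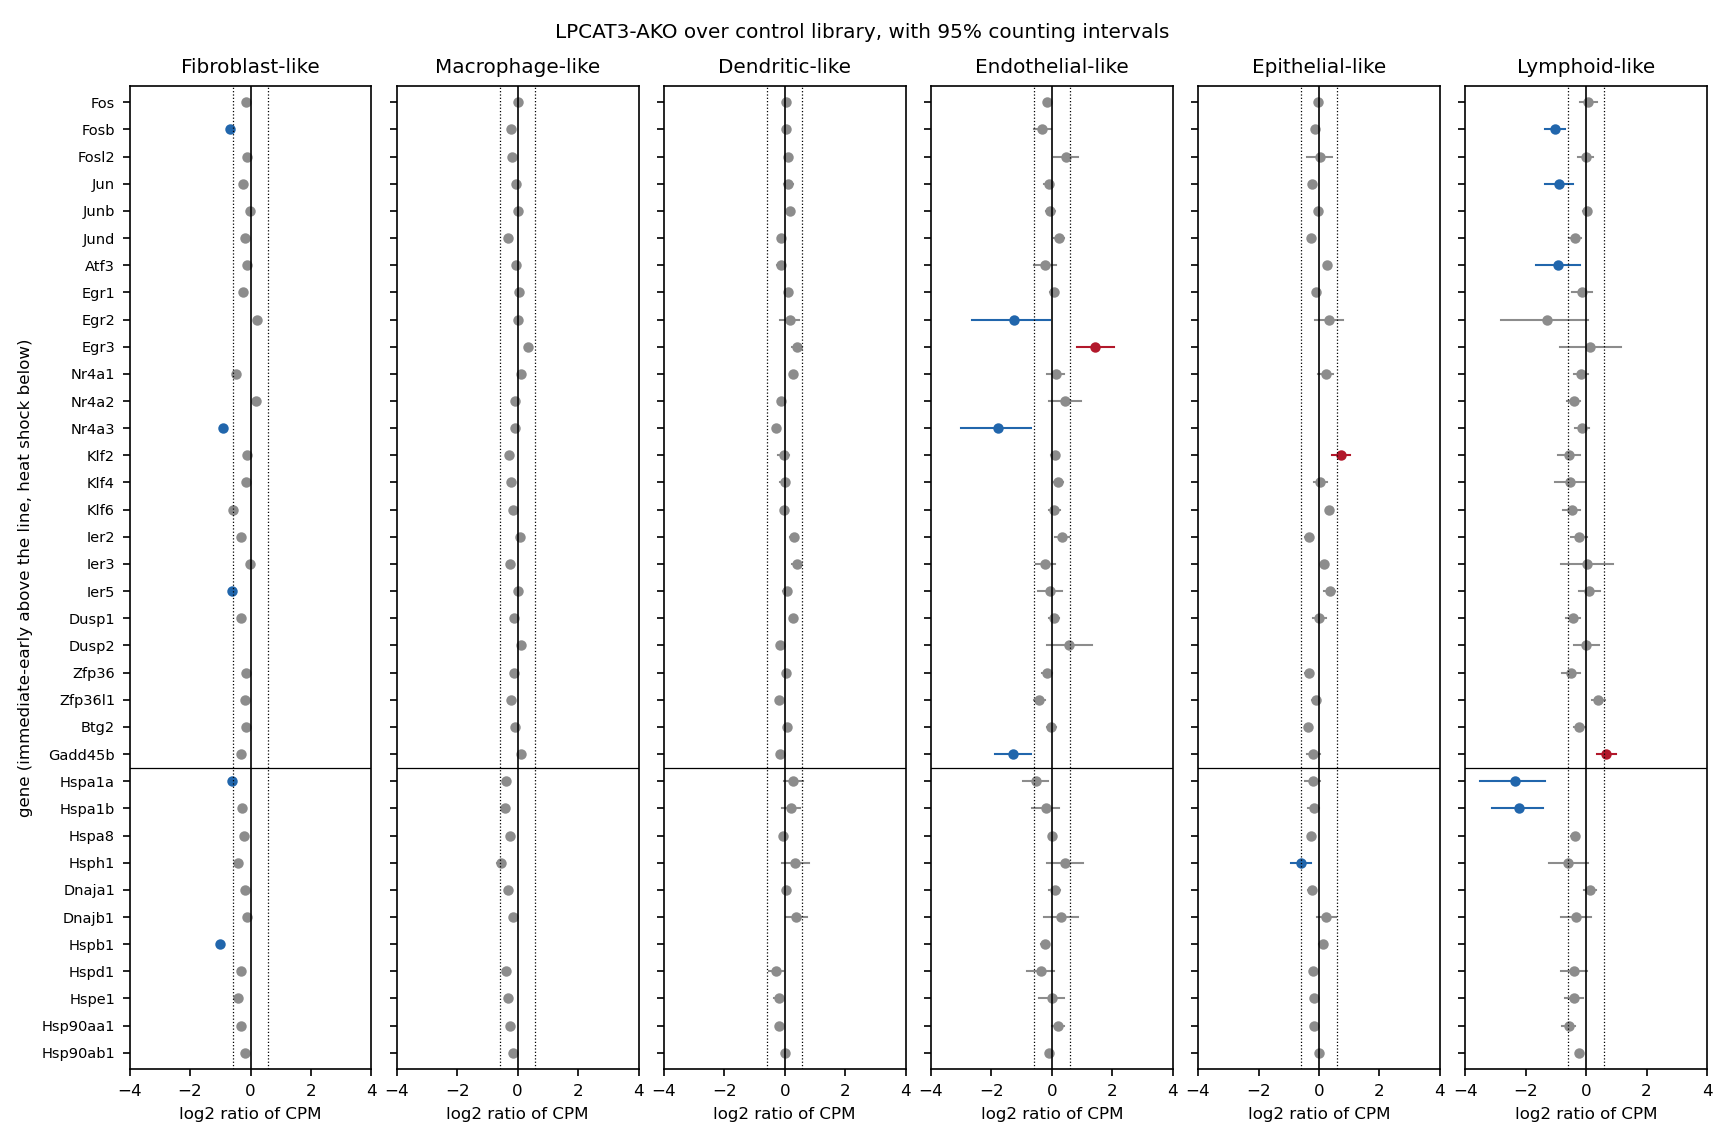
Log2 ratio of CPM, LPCAT3-AKO over control (horizontal axis), for each measured gene (rows) in each cell class (panels), with 95% counting intervals, dotted lines at 1.5-fold, red for called higher, blue for called lower and grey for neither. Heat shock points lie left of 0 throughout the fibroblast- and macrophage-like panels, whereas in dendritic- and endothelial-like cells they lie on both sides.

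Signs across the 6 classes can be read member by member. Of the immediate-early genes 23 of 25 had ratios on both sides of 1 in different classes. The share of all genes with both signs was not computed, so this count is not read as a trait of the members. It also includes epithelial-like ratios, for which no direction is given above. Nr4a3 was under 1 in every class where it was measured, though its endothelial-like log2 ratio reached 0.42 under another setting. Egr3 was above 1 in every class where it was measured, being under 20 CPM in fibroblast- and epithelial-like cells. Of the heat shock genes only Hspd1 and Hspe1, the 2 parts of the mitochondrial chaperonin, were under 1 in all 6 classes. The share of all genes under 1 in all 6 was not computed, so this is not read as a trait of the pair. In epithelial cluster 13 alone the Hspd1 ratio was 1.007. Hspd1 had 172 and 137 CPM in fibroblast-like and 339 and 299 CPM in epithelial-like cells. Over the 6 classes its log2 ratio ran from -0.41 in lymphoid-like to -0.18 in epithelial-like cells. For Hspe1 the endothelial-like values, 133 and 133 CPM, differed by less than counting error. Dusp1 and Egr1 had log2 ratios of -0.31 and -0.24 in fibroblast-like and 0.26 and 0.10 in dendritic-like cells, each under 1.5-fold. The median over all measured genes was 0.06 in dendritic-like cells. Gadd45b is the only member called in opposite directions in 2 classes, and each of its calls was lost under the stricter gate.

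The wider lists fixed for these pathways, chosen with earlier results of these data known, gave the setting. Of 27 measured other early genes in fibroblast-like cells 1 rose and 2 fell, the same backgrounds applying as for the members. Socs3, which inhibits cytokine signalling, rose (187 and 420.1 CPM). The chemokine Cxcl1 (1213 and 673 CPM) and the NF-kB inhibitor Nfkbia (1079 and 699 CPM) fell. Of 36 measured other heat shock and chaperone genes 0 were called, 28 had ratios under 1 and the ratio of sums was 0.946. Of 19 endoplasmic reticulum stress genes 0 were called, with a ratio of sums of 0.979. The corresponding ratios in macrophage-like cells were 0.941 and 1.01, with 0 called in either list and 0 of 27 other early genes called. The ratio of 0.843 for the 11 heat shock members in fibroblast-like cells was thus farther from 1 than that of either chaperone list. In epithelial-like cells 17 of 19 reticulum genes had ratios under 1 (ratio of sums 0.829), with 0 called. All measured genes of that class had a median log2 ratio of -0.04. The reticulum genes were not run with doublets removed by rank of score, so no direction is read for them. In dendritic-like cells 0 of 26 early and 0 of 29 chaperone genes were called, and 1 of 19 reticulum genes rose, Xbp1 (55.6 and 99.6 CPM), the factor spliced by the stress sensor IRE1. Early genes called in the smaller classes were 1 higher and 4 lower of 30 in endothelial-like, 2 higher and 1 lower of 27 in epithelial-like and 0 higher and 4 lower of 27 in lymphoid-like cells. Cxcl1 was among the lower in endothelial-like (113 and 47.8 CPM) and lymphoid-like cells (87.4 and 43.1 CPM), and it is named here after its values were seen.

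Over the 12 points of class and library, the 5 other genes whose log2(CPM + 1) was most like that of the immediate-early sum were Snx9, Tubb6, Ctsz, Slc8a1 and Canx, with Pearson r from 0.94 to 0.97. Points of 1 class share their cell type, so this describes a ranking of classes. Of the members Zfp36, itself part of the sum (r = 0.97), was nearest to it, and the heat shock gene Dnaja1 (r = -0.65) farthest.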

How the data were processed

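The deposited files hold raw counts of UMIs per gene and barcode for 1 control and 1 LPCAT3-AKO library, with whole numbers and no normalization by the authors. Per the submitters' processing notes, Cell Ranger 6.1.2 and Seurat 4.10 were used with genome build mm10, and no further settings are listed there. The 32285 gene identifiers gave 32245 symbols after 40 with a shared symbol were left out, and all 36 members matched. The members, marker lists and wider gene lists were chosen with earlier results of these data known.

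The libraries held 13831 and 12806 barcodes and 111669076 and 119355147 UMIs. Cells with at least 500 genes and at most 10% mitochondrial UMIs were kept (12426 and 11664). Scrublet, run per library at its own score threshold, then removed 589 and 560 cells (4.74% and 4.80%). That choice was made after values were seen. Removal by rank of score, 0.8% of cells per 1000 cells, was the first choice, and is kept as an alternative. Classes came from marker gates, and a class was compared with at least 100 cells in each library. UMIs were summed per class and library. Levels have exact Poisson and ratios exact binomial 95% intervals for counting error only. UMIs are molecules, but cells of a library are not replicates. Log2 ratios used CPM + 1. Clusters (Leiden, resolution 1, 30 principal components, 2000 variable genes) left the members out. The limits of 75 and 150 UMIs per 10000 and the look at epithelial clusters were chosen after seeing the data. Full values are given for members past the size rule in any compared class and for the member with the highest level in each role. The 5 genes most like the immediate-early sum were ranked among genes of 20 CPM or more. Of the wider lists, those called with the highest levels were named, with exceptions stated beside them. The size rule was tested on simulated Poisson counts of the fibroblast- and epithelial-like classes. Such counts hold no variation between cells, animals or libraries, so that test covers counting error only. Python 3.11.15, numpy 2.4.6, scipy 1.17.1, pandas 2.3.3, scanpy 1.11.5 and matplotlib 3.10.9 were used.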

Additional observations from a re-analysis of the deposited data

Results flagged for a closer look

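Gadd45b, a stress sensor of the p38 pathway, had a log2 ratio of 0.67 in lymphoid-like and of -1.26 in endothelial-like cells (LPCAT3-AKO over control), each past 1.5-fold with a counting interval that excluded 0. It was marked because the same contrast had opposite directions in 2 cell classes. The difference between the classes was not tested, since there is 1 library per genotype. Under the gate with 2 more markers the signs changed places, to -0.32 in lymphoid-like and 0.25 in endothelial-like cells.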

How the results depend on the processing

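No paired analysis was possible because each genotype has 1 library. With 1 library per genotype no setting adds a replicate, and small classes limit what the depth can show. The doublet threshold in use replaced removal by rank of score, the first choice and now an alternative, and this exchange and the equal weighting of epithelial clusters were chosen after seeing the data. Values below are log2 ratios, LPCAT3-AKO over control, and the cause of each shift was not tested.

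The immediate-early sum in fibroblast-like cells (-0.21) was -0.22 with classes from clusters, -0.23 with a gate of 2 more markers, -0.17 thinned to 2000 UMIs, -0.16 as a mean over cells and -0.23 over UMIs without mitochondrial, ribosomal and member genes. In macrophage-like cells (-0.07) it was -0.089, -0.089, -0.031, -0.037 and -0.068 in that order, -0.11 centred on all genes and -0.052 with states weighted alike. In epithelial-like cells (-0.08) it was 0.046, 0.074, 0.10, 0.11 and -0.024 in that order, -0.038 centred, 0.91 with doublets removed by rank of score, -0.20 at a 5% mitochondrial limit and -0.044 without the 1% of cells with the most. The heat shock sum in fibroblast-like cells (-0.25) was -0.26 with the stricter gate, -0.22 as a mean over cells, -0.26 over the reduced UMIs and -0.26 with states weighted alike. In macrophage-like cells (-0.24) it was -0.28 centred, and in epithelial-like cells (-0.10) -0.14 from clusters, -0.073 thinned, -0.062 centred and -0.048 over the reduced UMIs. The fibroblast- and macrophage-like sums stayed under 0 in every setting run.

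Of 17 calls between libraries, 5 held under every alternative that kept the 1.5-fold limit, and 10 of 177 single values changed sign. The 17 became 35 with doublets removed by rank of score and 7 at a ratio of 2. The 5 lower in fibroblast-like cells became 3 thinned, 3 as a mean over cells and 0 at a ratio of 2. The 1 higher in epithelial-like cells became 2 from clusters, 17 by rank of score, 4 thinned, 2 as a mean over cells and 0 at a ratio of 2. Shares of all genes called were not computed under the alternatives. The 64 calls between classes became 36 at a ratio of 3. The difference of the median immediate-early UMIs per 10000 per fibroblast-like cell, -38.6, was -45 thinned.

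In endothelial-like cells Egr2 reversed to 0.52 from clusters and 0.95 with the stricter gate, Nr4a3 to 0.019, 0.21 and, thinned, 0.42, and Gadd45b to 0.13 and 0.25. In lymphoid-like cells Fosb reversed to 0.059 and Atf3 to 0.33 from clusters, and Gadd45b to -0.32 with the stricter gate.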
